A study of Caenorhabditis elegans with 4 samples.

Results

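CHD-3 sites near the chromosome ends of adult Caenorhabditis elegans are described here: the 599 peaks of the series-level list whose midpoint lay within 500 kb of the left or right end of a nuclear chromosome. They were 5.70% of the 10512 nuclear peaks of that list, and the list held 10520 peaks with the mitochondrial ones. The left end was position 1 and the right end the highest peak end over the 3 deposited peak lists, so that 1 peak touched each right end by definition. All worms were fem-2(b245)III hermaphrodites, which carry a mutation in a gene needed for male development, kept at 20 °C; the study has no other genotype or treatment. The labels call them young adults with a germline, and the growth protocol describes adults harvested when gravid. It comprised 2 ChIP libraries, made with an affinity-purified rabbit polyclonal antibody against CHD-3, and 2 input libraries. Each ChIP library had its own peak list, and another list was called for the series as a whole. Whole adults were ground before chromatin was fixed, so the peaks carry no tissue of origin.

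CHD-3 belongs to the Mi-2 group of ATP-driven chromatin remodellers, which move nucleosomes and act in NuRD-type complexes together with histone deacetylases. Chromosomes of this nematode end in short tandem telomeric repeats and have no single centromere. Their arms, the outer parts on either side of a gene-dense centre, are rich in repeats and recombine often. Ribosomal DNA repeats lie at the right end of I, and the left end region of X holds the site that pairs X homologues in meiosis. Positions are in WormBase WS220 and were not joined to genes, because the gene table used here is on another assembly. In the gene order of that assembly (RefSeq, WBcel235), 4 of the last 10 genes at the right end of I are ribosomal RNA genes. The last protein-coding genes at the right end of III are pot-3, which encodes a telomere-binding protein, mdt-29, which encodes a Mediator subunit, and pdr-1, which encodes the parkin ubiquitin ligase. These names locate the ends and assign no peak to a gene.

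The terminal windows held more sites than the rest of the arms, and the excess lay at the right ends. The arm on either side was taken as 25% of the chromosome's length, so the comparison set 6 Mb of terminal windows against the other 44.1 Mb of arm, which held 3866 peaks. In the series-level list the density was 99.8 peaks per Mb in the terminal windows and 87.6 per Mb in the rest of the arms, a ratio of 1.14 (95% exact interval 1.04 to 1.24). Replicate 1 had 272 terminal peaks, at 45.3 per Mb against 37.7 per Mb in the rest of the arms, a ratio of 1.20 (1.05 to 1.37). Replicate 2 had 110, at 18.3 per Mb against 17.6 per Mb, a ratio of 1.04 (0.85 to 1.27). The mean ratio of the replicates was 1.12 ± 0.11 (SD, n = 2), so that its distance from 1 was close to the spread between the libraries. The chromosome centres had more peaks than the terminal windows in every list, with 120.6 per Mb in the series-level list, 57.6 in replicate 1 and 20.0 in replicate 2. All intervals count each peak as an independent draw and allow for counting error alone. In the terminal windows 25.9% of neighbouring series-level midpoints lay less than 1 kb apart, so the intervals of that list may be too narrow. In the replicates 0 of 260 and 0 of 98 neighbours did. There 96.0% and 97.3% of the terminal peaks were 1 kb or wider, so these counts cannot show whether replicate peaks cluster. The intervals of the replicates may be too narrow as well. Over 2 libraries an exact sign-flip permutation test cannot give a two-sided p below 0.5, so differences are given as values without a test.

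The ratio depended on how far from the end the window reached. It was 1.38 with a window of 250 kb and 1.00 with a window of 1000 kb. Set against the rest of wider arms of 33.3% of each chromosome, it was 1.04 (0.96 to 1.13).

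Fewer sites were listed at the left than at the right ends. The series-level list had 225 peaks at the 6 left ends and 374 at the 6 right ends, so that the left ends held 37.6% (33.7 to 41.6%). In the rest of the arms the left side held 48.8% (47.2 to 50.3%). The left share of terminal peaks was 40.1% (34.2 to 46.2%) in replicate 1 and 42.7% (33.3 to 52.5%) in replicate 2, with a mean of 41.4 ± 1.88% (SD, n = 2). The terminal interval of replicate 2 includes equal numbers on both sides, and also its left share of 46.4% in the rest of the arms. Left terminal windows had 75 peaks per Mb against 85.4 per Mb in the rest of the left arms, a ratio of 0.88 (0.76 to 1.01). Right terminal windows had 124.7 per Mb against 89.8 per Mb, a ratio of 1.39 (1.24 to 1.55). In the replicates the ratio for the right ends was 1.41 (1.19 to 1.67) in replicate 1 and 1.11 (0.84 to 1.45) in replicate 2. For the left ends it was 0.99 and 0.96.

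The single ends showed where this difference arose. The right end of III was the densest, with 86 series-level peaks or 172 per Mb, against 93.3 per Mb in the rest of its right arm. This place rested on 13 peaks that lie under 1 peak of replicate 2: without them it had 146 per Mb, below the right end of II, which was also the denser in replicate 1 (66 against 64 per Mb for III) and in replicate 2 (38 against 28). The right end of II had 80 peaks (160 per Mb against 103.9), then the right end of X with 67 (134 against 126.2) and the right end of I with 61 (122 against 97.0). The right ends of IV and V had 40 peaks each, or 80 per Mb against 65.3 and 62.4 in the rest of their arms. All 6 right ends were thus denser than the arm beside them in the series-level list. Replicate 1 gave 6 of 6 as well, although X had 58 per Mb against 57.8, and replicate 2 gave 3 of 6, on I, II and III.

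Of the left ends, that of IV had the most peaks. It held 49, or 98 per Mb against 92.7 in the rest of its left arm, and was the 1 left end of 6 with a ratio above 1 in the series-level list. The left end of V had the fewest, with 25 (50 per Mb against 58.5), and that of II had 28 (56 against 83.7), the lowest ratio of the 12 ends at 0.67. The left ends of I, III and X held 38, 45 and 40 peaks. Chromosome IV was also the exception in the comparison of its sides, with 49 peaks at its left end and 40 at its right end, while the other 5 chromosomes had more at the right. In replicate 1 the same 5 of 6 chromosomes had more at the right, and IV had 24 and 19. In replicate 2, 3 chromosomes had more at the right, IV and X had more at the left, and I had 11 at each end. Replicate 2 listed few peaks at the ends of IV, with 4 at the left and 3 at the right, which gave the lowest ratios of that list, 0.45 and 0.42. Over the 12 ends, terminal peak numbers in replicates 1 and 2 were correlated with a Spearman coefficient of 0.64, given as a description, since all points come from the same 2 libraries.

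**Figure D1:**
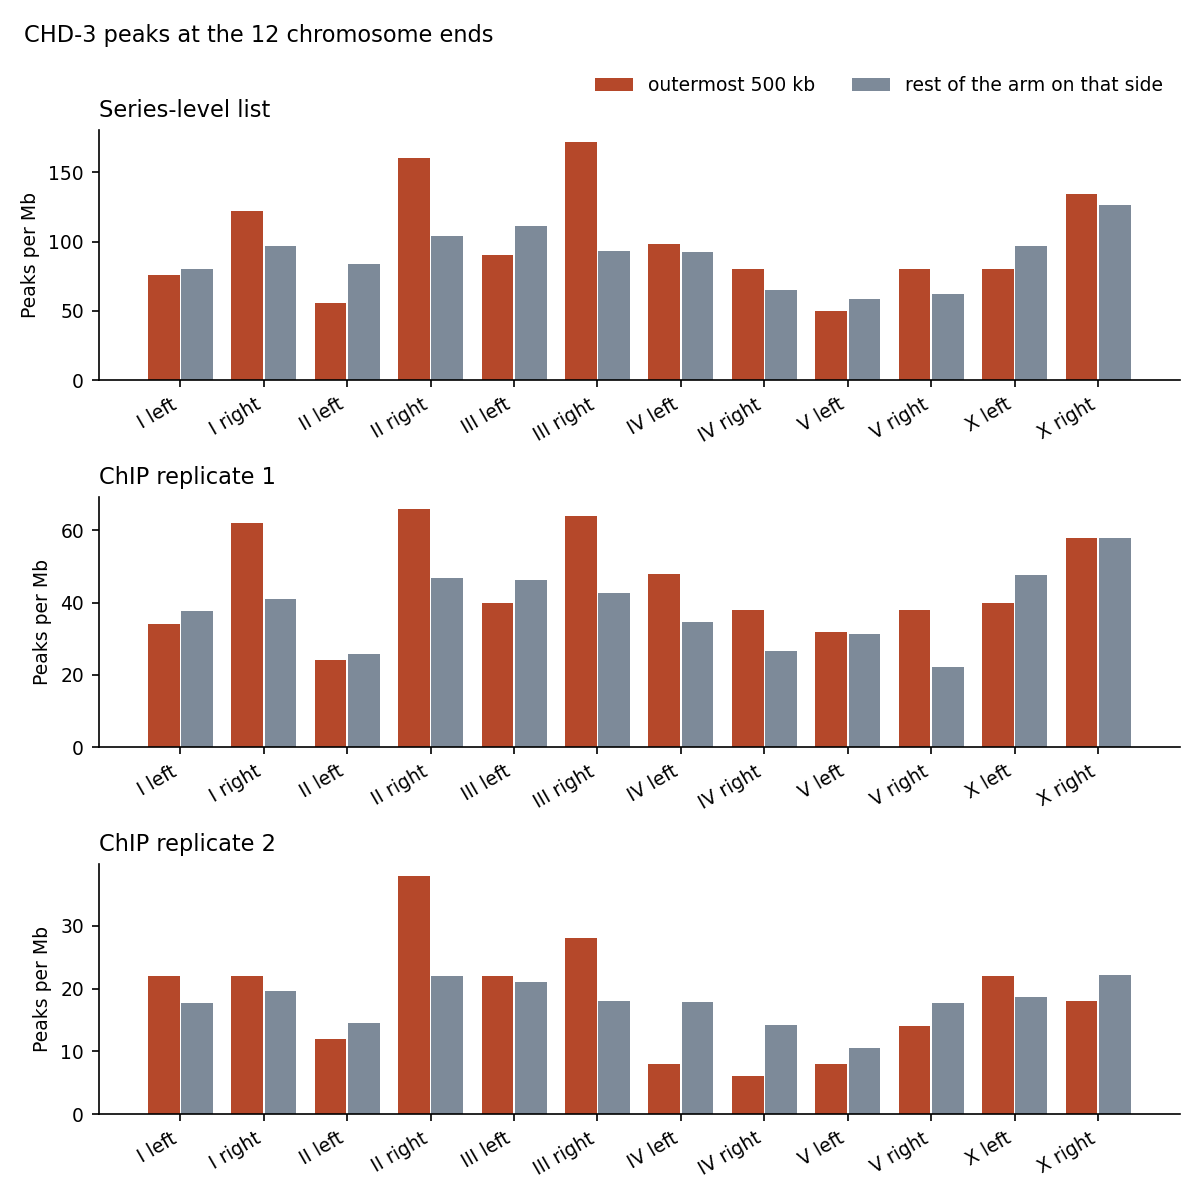
Bars give CHD-3 peaks per Mb at each of the 12 chromosome ends, in the outermost 500 kb (left bar of each pair) and in the rest of the arm on that side (right bar), for the series-level list and the 2 ChIP replicates, each with its own vertical scale. The right ends of II and III stand highest in the series-level list, at 160 and 172 peaks per Mb (146 for III without the 13 peaks under 1 peak of replicate 2), and the ends of IV are low in replicate 2, at 8 and 6.

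Sites at the right ends lay mostly in the outer part of the window. There 247 series-level peaks lay in the outermost 250 kb and 127 between 250 and 500 kb, or 164.7 and 84.7 per Mb. Each of the 6 right ends had more peaks in its outer than in its inner part, most unevenly on V with 34 and 6 and on III with 64 and 22. Of the 64 on III, 13 were the peaks under 1 peak of replicate 2. These 13 also count among the 247 and in the share over both sides. At the left ends 113 peaks lay in the outer and 112 in the inner part, and 3 of 6 ends had more in the outer part. Over both sides 60.1% of the members (56.1 to 64.0%) lay in the outermost 250 kb. In replicate 1 the right ends had 64.7 peaks per Mb in the outer and 44 in the inner part, and the left ends 34.7 and 38. In replicate 2 these were 26 and 16 at the right ends, and 18.7 and 12.7 at the left ends.

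In bins of 50 kb, the outermost bin of the left ends held 40 series-level peaks, or 133.3 per Mb, the most of the 10 left bins. Of these, 16 were on I. The left bin from 200 to 250 kb held 7, the fewest, and the same bin was low in replicate 1 with 3 peaks and in replicate 2 with 2. At the right ends each of the 5 bins up to 250 kb held 39 to 58 peaks, and each of the 5 beyond it held 16 to 34. Of the 39 from 150 to 200 kb, however, 13 lie under 1 peak of replicate 2 at the right end of III. That bin held 11 peaks in replicate 1 and 4 in replicate 2, while single right bins beyond 250 kb held up to 19 and 7. A split of all single bins at 250 kb was thus not seen in the replicates. In the series-level list it rested on the 13 peaks on III. Without them the bin from 150 to 200 kb would lie below that from 400 to 450 kb, which held 34. The outermost 250 kb of the right ends held more peaks than the inner part in both replicates. The numbers were 97 and 66 in replicate 1, and 39 and 24 in replicate 2. The right bin from 350 to 400 kb was the lowest in all 3 lists, with 16, 7 and 2 peaks. Bins of 1 list share their peaks with those of the others, since the lists rest in part on the same libraries.

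**Figure D2:**
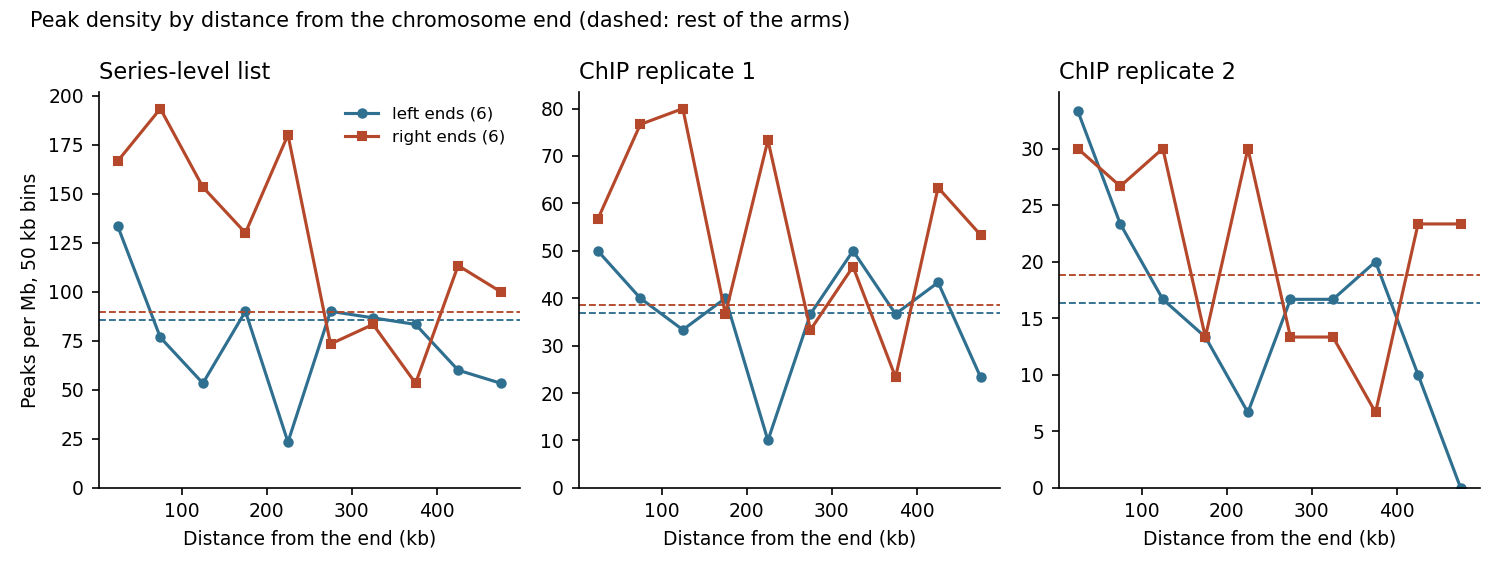
Points give peaks per Mb in bins of 50 kb by distance from the chromosome end in kb, summed over the 6 left ends (circles) and the 6 right ends (squares), for each list on its own scale; dashed lines mark the rest of the arms on the same side. In the series-level list right ends lie above their line out to 250 kb and again from 400 to 500 kb. At 150 to 200 kb, 13 of the 39 right peaks lie under 1 peak of replicate 2 on III. In that list left ends lie below their line from 50 to 150 kb, 200 to 250 kb and 350 to 500 kb, and lowest at 200 to 250 kb.

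Some stretches of the terminal windows had no peak midpoint. The longest in the series-level list ran from 287.7 to 400.4 kb from the right end of II. At the left end of V there was none between 16.7 and 104.6 kb, and at the left end of I none between 188.4 and 280.2 kb. The left end of IV had a single peak in its outermost 50 kb. At the left end of II, no peak midpoint lay between 323.5 kb and the limit of 500 kb in replicate 1, or between 323.7 kb and that limit in replicate 2, while the series-level list had peaks there. Neighbouring midpoints were a median of 2.67 kb apart in the terminal windows (2.07 to 3.15 kb) and 2.95 kb in the rest of the arms (2.70 to 3.22 kb), and these intervals overlap.

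The outermost site of each chromosome end was described separately, a choice made by position alone. In the series-level list a peak began at base 1 at all 6 left ends, and the last peak at each right end defined that end. These 12 outermost peaks were 206 to 740 bp wide and scored 5.17 to 42.77, where the score is the authors' peak caller value on a scale that no source names. The median score of all members was 7.04, and 11 of the 12 outermost peaks were above it. The exception was IV left at 1 to 206, which scored 5.17.

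At the left ends, 5 of the 6 outermost peaks overlapped a peak of replicate 2 and 2 overlapped one of replicate 1. The peak on I at 1 to 470 scored 33.55 and that on II at 1 to 445 scored 35.09. Replicate 2 had peaks of 1423 and 1097 bp at these 2 tips, with scores of 834.14 and 400.08, and replicate 1 had none. The peak on V at 1 to 383 (20.74) also matched replicate 2 alone, at a score of 433.44. The peaks on III at 1 to 296 (23.59) and on X at 1 to 351 (18.04) were found in both replicates. On III the score was 73.51 in replicate 1 and 140.33 in replicate 2, and on X 131.78 and 383.14. These scores differ in size between lists for reasons not given in the sources used here, and only their presence is compared.

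At the right ends, 5 of the 6 outermost peaks overlapped neither replicate. They lay on II at 15279019 to 15279346 (score 12.44), on III at 13783350 to 13783723 (19.97), on IV at 17493352 to 17493817 (21.14), on V at 20923820 to 20924172 (25.81) and on X at 17718338 to 17718889 (21.53). The exception was I at 15071704 to 15072443 (42.77), which overlapped a peak of replicate 2. The nearest peak of replicate 1 ended between 6.98 kb (II) and 29.9 kb (I) from the right ends. That of replicate 2 ended 0.644 kb from the right end of I, 12.1 kb from that of II and 16.1 kb from that of III. On X, V and IV it ended 85.2, 129.6 and 211.8 kb away. Within 10 kb of an end, 3 of 12 series-level peaks at the left ends and 13 of 17 at the right ends overlapped neither replicate, against 18.0% of all nuclear peaks of that list. The right end of III held 7 of these 13.

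The next peak inward lay at varied distances. At the left ends it was within 1 kb on I and II, at 5.77 kb on X and 8.85 kb on V, at 14.3 kb on III and at 51.4 kb on IV. On X this second peak, at 5289 to 6245, scored 45.84 and was found in both replicates, as was that on V at 8106 to 9596 (32.04), the highest score of that end. At the right ends it was at 1.04 kb on IV and 1.09 kb on III, and at 20.5 kb on V.

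High scores were found both at the tips and deep in the windows. Of the 20 highest-scoring members 3 lay within 10 kb of an end, as did 29 of all 599 members or 4.84%. The highest score, 104.36, was on I at 14686331 to 14687630, 385.5 kb from the right end. It overlapped a peak of 1890 bp in replicate 1 and one of 1891 bp in replicate 2. The second, on X at 142811 to 143719 (90.32), lay 143.3 kb from the left end and was found in both replicates. The next, on I at 314877 to 316498 (69.48), was 315.7 kb from the left end. It overlapped peaks with scores of 3100 in replicate 1, a value that 539 nuclear peaks of that list share, and 607.79 in replicate 2. The fourth, on I at 22210 to 22494 (58.71), was only 285 bp wide and overlapped replicate 1 alone. The next, on X at 17255654 to 17256067 (56.11), matched both. Among these 20, 10 lay at left and 10 at right ends, 15 were found in both replicates, and 7 were on X. Of all 599 members, 37.6% lay at left ends and 24.0% were found in both replicates. The left and right ends of X held 40 and 67 of them.

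Each other end had its own highest peak. On the left these were on II the outermost peak itself, on III the peak at 354003 to 356277 (43.97) and on IV that at 385058 to 385726 (35.68). On the right they lay on II at 14993205 to 14993994 (36.23), on III at 13446622 to 13447852 (52.36), on IV at 17277444 to 17278840 (31.07) and on V at 20711303 to 20713308 (32.40). Apart from the tip of II, each of these overlapped a peak in both replicates. The median score was 7.04 (6.49 to 7.64) in the terminal windows and 6.80 (6.52 to 7.03) in the rest of the arms, and the intervals overlap.

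**Figure D3:**
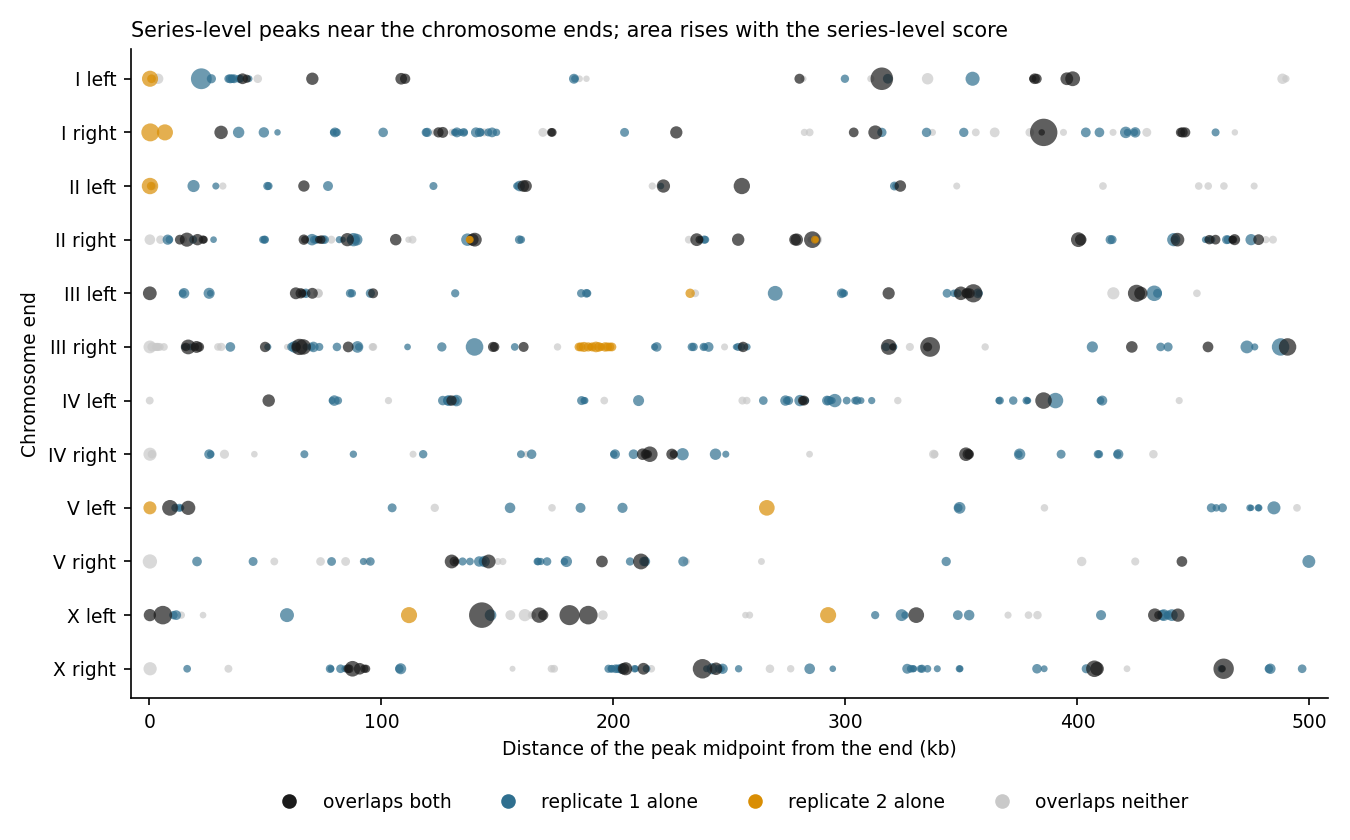
Each point is 1 of the 599 series-level peaks, placed by the distance of its midpoint from the end in kb (horizontal) at its chromosome end (rows); the area rises with the series-level score and the colour shows which replicates it overlaps by at least 1 bp. Peaks found in replicate 2 alone gather at the left tips of I, II and V, at the right tip of I and in a run of 13 near 190 kb from the right end of III.

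Most members were narrow. They had a median width of 336 bp (308 to 371 bp) against 326 bp (315 to 336 bp) in the rest of the arms, and 10.2% of them against 9.52% were 1 kb or wider. In replicate 1 the medians were 1586 bp (1488 to 1712 bp) and 1522 bp (1477 to 1566 bp), and in replicate 2 they were 1621 bp (1416 to 1747 bp) and 1576 bp (1525 to 1632 bp). The intervals overlap in each list. Peaks covered 5.28% of the terminal windows and 4.41% of the rest of the arms in the series-level list, 9.73% and 8.17% in replicate 1, and 3.81% and 3.46% in replicate 2. In the series-level list the right end of III had the highest coverage, 9.83%, and the left end of V the lowest, 2.33%. Without the same 13 peaks the right end of III had 7.36%, below the 7.49% of the right end of II. In replicate 1 the right end of X had more than that of III, 15.4% against 14.8%. Wider members scored higher, with a Spearman correlation across the 599 peaks of 0.70, which describes the list.

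The widest members were unevenly supported. The widest, 11129 bp on I at 15060225 to 15071353, lay 6.66 kb from the right end, the end that holds the ribosomal DNA repeats. Whether this peak overlaps those repeats was not tested, because positions were not joined to genes. The second, 5493 bp on X at 289792 to 295284, and the next, 4790 bp on X at 109486 to 114275, were 292.5 and 111.9 kb from the left end. All 3 lay within a peak of replicate 2 with a score of 3100, a value that 16 nuclear peaks of that list share. None of the 3 overlapped a peak of replicate 1. In replicate 1, 539 nuclear peaks have that same score, and 20 of the 21 terminal ones among them overlapped replicate 2. The next 2, 2958 bp on V at 20776496 to 20779453 and 2922 bp on X at 17479039 to 17481960, were found in both. The widest and the narrower of the pair on X scored exactly 33.55, as did 12 nuclear peaks of the series-level list in all. All 12 overlapped a peak of replicate 2, and 8 of them overlapped replicate 2 alone. Over all nuclear peaks of that list, 26.0% overlapped both replicates and 3.15% replicate 2 alone.

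Of the members, most were found in replicate 1, with or without replicate 2. By an overlap of at least 1 bp, 144 of the 599 members, or 24.0% (20.7 to 27.7%), were found in both replicates, against 25.6% (24.2 to 27.0%) in the rest of the arms and 26.0% of all nuclear peaks. Replicate 1 alone held 51.4% (47.3 to 55.5%) against 44.9% (43.3 to 46.5%) in the rest of the arms, where the background over all nuclear peaks was 52.9%. Replicate 2 alone held 4.67% (3.13 to 6.69%) against 5.10% (4.42 to 5.84%), with 3.15% over all nuclear peaks. Neither replicate held 19.9% (16.7 to 23.3%) against 24.4% (23.1 to 25.8%), and 18.0% over all nuclear peaks. The intervals of the 2 zones do not overlap for replicate 1 alone and overlap for the other classes. The share in both was higher for wider peaks. Among members under 250 bp, 7.43% (4.22 to 11.95%) were in both replicates, against 8.33% (6.93 to 9.91%) in the rest of the arms. Among those of 1000 bp or more it was 80.3% (68.2 to 89.4%) against 79.3% (74.8 to 83.4%). From 250 to under 500 bp it was 10.1% (6.28 to 15.2%) against 15.6% (13.7 to 17.7%). With a 50% reciprocal overlap the share of members in both replicates was 3.67%, since a series-level peak is usually far narrower than a replicate peak.

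**Figure D4:**
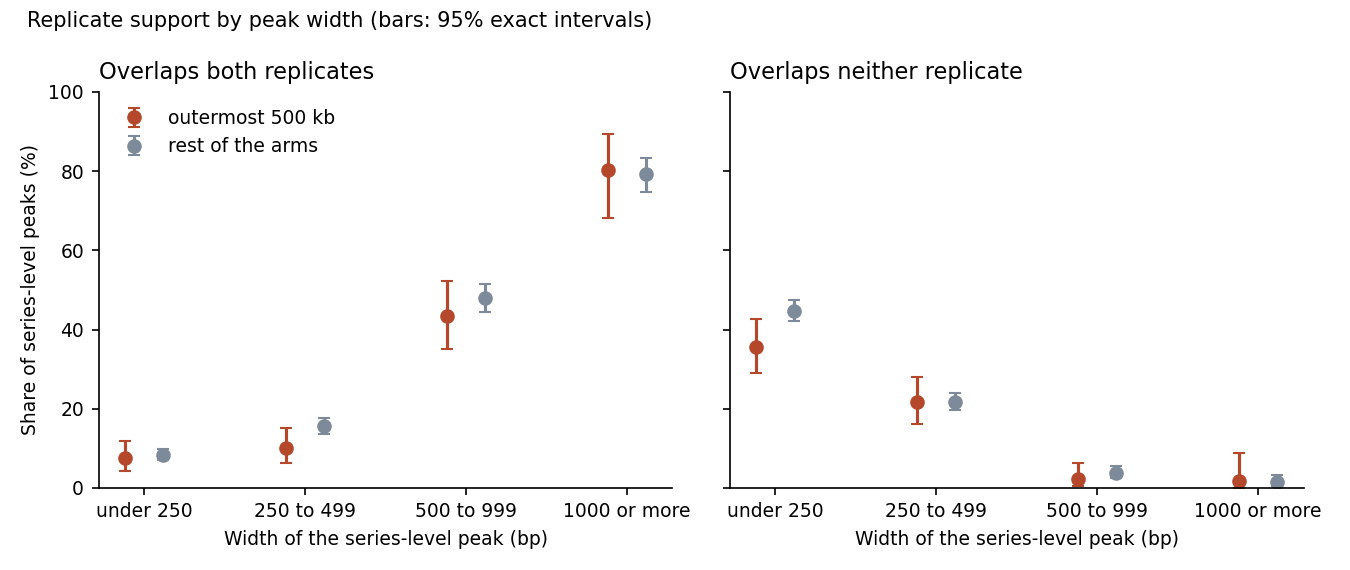
Points give the percentage of series-level peaks that overlap both replicates (left panel) or neither (right panel) by width class in bp, for the outermost 500 kb (left point of each pair) and the rest of the arms (right point), with 95% exact intervals as bars. The share in both replicates is higher for wider peaks in both zones, from 7.43% to 80.3% near the ends.

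Support varied between the ends. At the right end of II, 28 of 80 members or 35% were found in both replicates, the highest share, and at the left ends of V and IV 2 of 25 or 8% and 5 of 49 or 10.2%, the lowest. The left ends as a whole had 22.2% (17.0 to 28.2%) and the right ends 25.1% (20.8 to 29.9%). The share that overlapped neither replicate showed no steady course with distance. It was 28.9% of the 90 members in the outermost 50 kb and 12.3% of the 81 in the next bin, but 25.8% from 150 to 200 kb, 26.5% from 250 to 300 kb and 26.1% from 450 to 500 kb. At the left ends it was 17.5% in the outermost bin and 50% in the innermost. At the right ends it was 38% in the outermost bin, and also 36.4% from 250 to 300 kb and 31.3% from 350 to 400 kb.

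Peaks of the replicates themselves gave the converse view. Of the 110 terminal peaks of replicate 2, 101 or 91.8% (85.0 to 96.2%) overlapped a peak of replicate 1, against 82.6% (79.7 to 85.2%) in the rest of the arms and 88.8% over the whole nuclear list. Of the 272 of replicate 1, 90 or 33.1% (27.5 to 39.0%) overlapped replicate 2, against 34.7% (32.4 to 37.1%) and 30.6% over the list. All 110 terminal peaks of replicate 2 overlapped the series-level list (background 99.3%), as did 254 of the 272 of replicate 1 or 93.4% (background 88.6%). The 18 that did not were 971 to 1749 bp wide and scored 52.3 to 151.4.

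The 9 terminal peaks of replicate 2 without a partner in replicate 1 are named after their values were seen. Their median width was 3142 bp, compared with 1608 bp for the 101 with a partner, and their median score was 588, compared with 134. In the rest of the arms the 135 without a partner had a median width of 1600 bp, compared with 1562 bp for those with one. Median scores there were 122.7 and 134.4. The 9 terminal peaks included the tips of I, II and V left, the right end of I and the 2 wide sites on X already given. The others lay on V at 264567 to 267708 and on III at 232579 to 233718 and at 13583984 to 13599350. The last, 15367 bp wide with a score of 493.24, was the widest terminal peak of that list. It covered a run of 13 series-level peaks between 13584194 and 13598957 on III, 311 to 1719 bp wide, with midpoints 673 to 1803 bp apart and scores of 3.31 to 12.63. These were 13 of the 28 members found in replicate 2 alone. Without them the right end of III had 73 peaks or 146 per Mb, 1.56 times the rest of its right arm in place of 1.84 times.

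The limit of 500 kb fell within a peak of replicate 1. The member farthest inward, on V at 20424100 to 20424730 (20.14), lay 499.8 kb from the right end. The nearest peak outside, on V at 20423691 to 20423984 (9.72), lay 500.3 kb from it, and both overlapped the same peak of replicate 1.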

How the data were processed

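All values come from the deposited peak lists; the sequencing depth behind them is unknown. BWA and the build ce10 are named in the submitters' processing notes, without a version. Per the file headers, coordinates are in WormBase WS220. The source field names MACS for the list of each ChIP library and MACS v2 for the series-level list; thresholds, the use of input and the way libraries were combined are not stated there. The authors gave every peak a score of unnamed scale, used to rank peaks within a list.

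Peak midpoints set the zones. Shares carry 95% exact Clopper-Pearson intervals, density ratios the interval of the terminal share rescaled by length, and medians 95% order-statistic intervals. Overlap means at least 1 bp unless stated. Named regions are, per end, the outermost and the highest-scoring member, then the 5 highest-scoring and 5 widest members and the peaks on either side of the 500 kb limit. The members and measures were chosen with earlier results of these data known. Labels do not say whether the ChIP libraries came from separate cultures. The 2 input libraries entered no comparison. No genome of this build was used, so no sequence is shown. Calculations were tested on simulated lists and used Python 3.11.15, numpy 2.4.6, pandas 2.3.3, scipy 1.17.1 and matplotlib 3.10.9.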

Additional observations from a re-analysis of the deposited data

How the results depend on the processing

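Of 100 alternatives to 10 values, 76 stayed within the interval of the value (1 SD for replicate means) and 24 moved outside it. By a test 0 changed direction, since none was made. Some of the 76 could not have moved. A single replicate always lies within 1 SD of the mean of 2. The series-level list itself set every right end, so using its own ends changed nothing in it. The covered share does not depend on the width of the arms. Another 20 alternatives, leaving out chromosomes other than I, were among the 100 and were chosen after seeing the data. With a window of 250 kb the density ratio was 1.38 (series-level) and 1.30 (replicate mean), the left share 31.4%, the share in the outer part 53.1% and the covered share 6.66%; with 1000 kb the ratios were 1.00 and 0.99, the outer share 55.9% and the covered share 4.61%. Set against the rest of wider arms (33.3%) the series-level ratio was 1.04. In the upper 50% by score the replicate mean ratio was 1.24, the median width 546.5 bp, the covered share 4.02% and the share in both replicates 38.4%, fewer and wider peaks being left. Merging peaks closer than 200 bp gave a median width of 407 bp. The share in both replicates was 3.67% with a 50% reciprocal overlap and 7.01% for midpoints within 250 bp. The share in neither was then 85.1% and 59.6%, and 8.75% in the upper 50% by score. Leaving out a chromosome kept the series-level ratio between 1.10 and 1.19, and the series-level left share between 34.5 and 40.1%. Without III the interval of the ratio was 0.99 to 1.21. The replicate mean of the left share, 41.4%, was 44.8% (1 SD range 38.6 to 51.0%) in the upper 50% by score. It was 39.5% with the right ends of each list itself and 38.3% with a window of 250 kb. With 2 replicates, leaving out 1 returns the other: ratios of 1.04 to 1.20. The covered share has no counting interval of its own and was judged by that of the peak number. No paired analysis was possible because the input libraries have no list among those analysed. The unknown depth limits any reading of sites missing from a replicate.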
